A study of Homo sapiens with 10 samples.

Results

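The 10 genes examined write histone acetylation or supply its acetyl group: the acetyltransferase genes *EP300*, *CREBBP*, *KAT2A*, *KAT2B*, *KAT5*, *KAT6A*, *KAT7* and *KAT8*, and the acetyl-CoA supply genes *ACLY* and *ACSS2*. They were taken as a list by function, with a rule that uses no measured value. Every island (a stretch of the genome called as enriched) that overlapped the hg19 span of a gene widened by 10 kb on each side was counted to that gene's window. This gave 693 of the 778773 islands in 9 lists.

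The cells were immortalized human astrocytes, a fetal line immortalized with SV40, in which doxycycline at 1 µg/ml switches on mutant IDH1 (IDH1-R132H). CUT&RUN, in which an antibody-directed nuclease releases fragments from permeabilised cells, was run for H3K9ac, H3K27ac and H4K16ac. The groups were cells without doxycycline, labelled WT IDH1, and IDH1-R132H cells after 2 days and 7 days of doxycycline. The negative control was the HRP-linked secondary antibody on cells without doxycycline. There was 1 library per mark and time, so no replicate error exists, no test was made, and every interval below covers counting error only. No group received doxycycline without mutant IDH1, so the drug, the time in culture and IDH1-R132H cannot be told apart. The astrocyte label was not checked against marker genes, and expression of the 10 genes was not measured.

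Histone acetyltransferases move the acetyl group of acetyl-CoA onto lysines of histone tails. EP300 and CREBBP are large coactivators that acetylate H3K27 at promoters and enhancers. KAT2A and KAT2B, of the GNAT family, acetylate H3K9, and the MYST family includes KAT8, the main writer of H4K16ac. ACLY makes nuclear and cytosolic acetyl-CoA from citrate, and ACSS2 makes it from acetate, so both feed the same reaction.

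RefSeq promoter sequences matched 8 of the 10 genes, at 11 listed starts, and *KAT6A* and *KAT8* are only named. The 150 bases upstream of the listed start are shown for 4 starts, which hold 0, 2 or 3 GC boxes in these bases. All these genes carried H3K27ac at the outer edge of the gene on the start side, which is called the start below. In *ACLY* that edge is not a listed start. The listed *ACLY* starts lie 11.5 and 11.6 kb inside the outer edge of the RefSeq gene. Capitals mark the GC box, the letters GGGCGG or, on the other strand, CCGCCC. Coordinates are GRCh38.p14 and cannot be set against the hg19 islands below.
KAT2A, chr17:42121368-42121517, minus strand: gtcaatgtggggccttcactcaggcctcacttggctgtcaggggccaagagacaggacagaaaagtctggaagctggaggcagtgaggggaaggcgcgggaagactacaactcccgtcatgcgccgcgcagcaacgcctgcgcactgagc
KAT2B, chr3:20040296-20040445, plus strand: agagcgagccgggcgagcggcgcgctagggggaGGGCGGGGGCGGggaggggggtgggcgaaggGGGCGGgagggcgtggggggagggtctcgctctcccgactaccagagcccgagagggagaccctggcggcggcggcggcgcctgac
ACLY, first listed start, chr17:41919023-41919172, minus strand: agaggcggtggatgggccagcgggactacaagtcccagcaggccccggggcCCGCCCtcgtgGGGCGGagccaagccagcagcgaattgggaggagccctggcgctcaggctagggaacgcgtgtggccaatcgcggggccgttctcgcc
ACSS2, second listed start, chr20:34876462-34876611, plus strand: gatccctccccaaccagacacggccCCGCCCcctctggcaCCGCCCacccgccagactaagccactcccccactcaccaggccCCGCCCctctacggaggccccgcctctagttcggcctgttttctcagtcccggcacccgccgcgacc

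Within 250 bases upstream, 7 of the 11 starts held a GC box, against 42.6% of all 35116 RefSeq promoters. CCAAT, or ATTGG on the other strand, was present at 3 of the 11, against 32.0% of all promoters. The starts with a GC box were those of *CREBBP*, *KAT2B*, *ACLY* and *ACSS2*, and those with CCAAT were in *ACLY* and *ACSS2*. *CREBBP*, *ACLY* and *ACSS2* are listed more than once, and the *ACLY* starts share most of the bases searched, so these counts repeat genes. CG pairs numbered 3 to 46 per start, against a median of 11 over all promoters. The 4 starts shown had 11 CG pairs at *KAT2A*, 33 at *KAT2B*, 23 at *ACLY* and 18 at *ACSS2*, with no GC box at *KAT2A* and 3 in the bases shown at *KAT2B* and *ACSS2*. These matches describe the letters only.

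Depth differed between libraries, and so did the stretch called. Relative library size, with the HRP library as 1, was 3.05 without doxycycline, 4.17 at 2 days and 4.88 at 7 days in H3K9ac. In the same order it was 3.98, 3.15 and 1.49 in H3K27ac and 2.53, 3.08 and 7.88 in H4K16ac. The 10 windows held 5454, 7578 and 9354 island reads of H3K9ac, 12612, 8981 and 4660 of H3K27ac, and 3207, 4266 and 17766 of H4K16ac. The median share of a window covered by H4K16ac islands was 22.6%, 28.9% and 61.2% across the times. Levels below are island reads divided by relative library size, written as reads per unit, and a sum of this kind grows with the length called. Per kb of island, 8 of 10 H4K16ac windows and 4 of 10 H3K27ac windows had the other sign at 7 days over no doxycycline, and 6 of 10 did in H3K9ac. All 10 windows were then lower in H4K16ac, in each of the 3 comparisons. None of the 10 window calls made below (at least 2-fold) was kept per kb. Depth and a change in a mark cannot be told apart in these sums or in the values per kb.

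**Figure D1:**
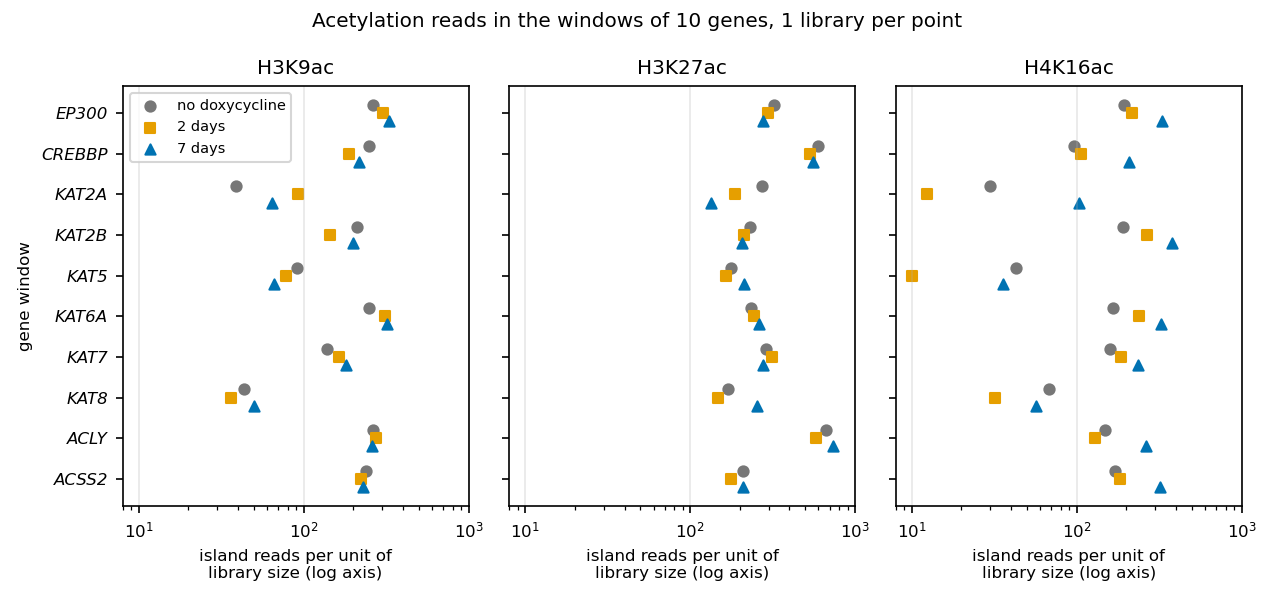
Island reads per unit of library size (log axis) in the windows of 10 genes for 3 marks, 1 library per point, without doxycycline (circles), at 2 days (squares) and at 7 days (triangles). H3K27ac at *KAT2A* is lowest at 7 days and at *KAT8* highest at 7 days, H4K16ac at 7 days lies above no doxycycline in 8 of 10 windows, and *KAT5* and *KAT2A* have the lowest H4K16ac values at 2 days.

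The median window ratio of summed reads lay near 0 in H3K9ac and H3K27ac, with single windows between -1.03 and 1.24, and was above 0 in H4K16ac at 7 days, as over the genome. The median log2 ratio of a window in H3K9ac was -0.017 at 2 days over no doxycycline and 0.087 at 7 days over no doxycycline, and per kb of island -0.098 and -0.16. H3K27ac windows had medians of -0.14 at 2 days and -0.020 at 7 days, which turned to 0.17 and 0.36 per kb. Over all H3K27ac regions the medians per kb were 0.14 and 0.46. H4K16ac windows had median log2 ratios of summed reads of 0.12 at 2 days and 0.87 at 7 days over no doxycycline. Both ratios of a mark share the library without doxycycline. All 100 kb tiles of the genome with an island in both libraries had medians of 0.12 and 0.62 for H4K16ac. The log2 ratio of all H4K16ac island reads at 7 days was 0.51, and relative to it the median window stood at 0.36. Per kb of island the H4K16ac median was -0.20 at 2 days and -0.61 at 7 days, with -0.58 over all regions at 7 days, so its sign rests on whether called length counts.

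**Figure D2:**
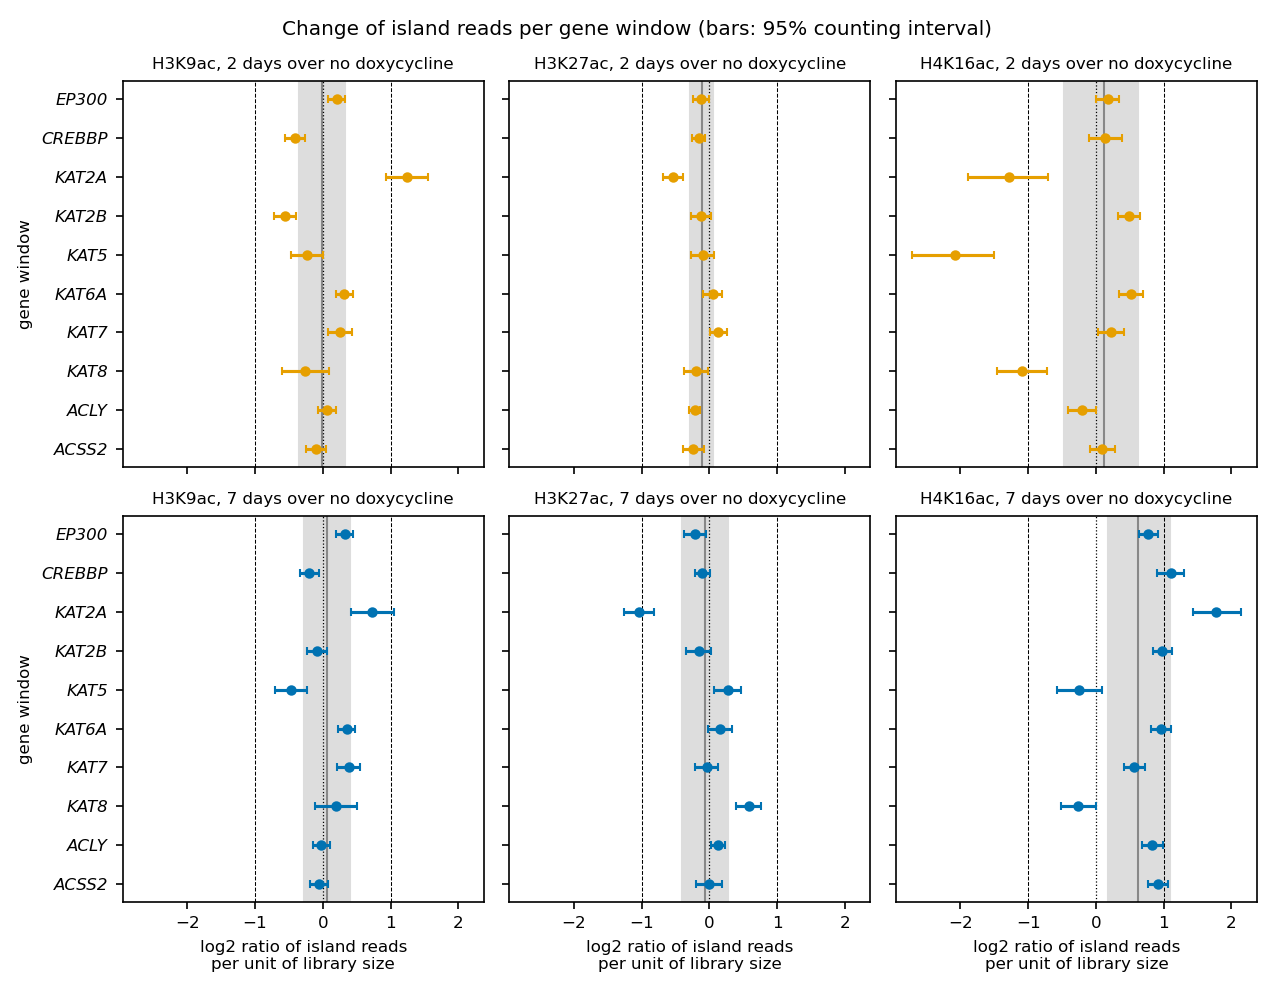
Log2 ratio of island reads per unit of library size in each gene window, at 2 days (upper row) and 7 days (lower row) over no doxycycline, for 3 marks; bars are 95% counting intervals, grey bands the quartiles of 100 kb tiles, grey lines their median and dashed lines 2-fold. Most windows lie within or near the grey bands, and *KAT5*, *KAT2A* and *KAT8* lie below -1 for H4K16ac at 2 days.

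H4K16ac lay away from the start more often than the H3 marks. H3K27ac and H3K9ac islands lay within 2 kb of the start-side edge of all 10 genes at all times, whereas H4K16ac islands lay there in 5, 6 and 5 genes. *EP300*, *CREBBP*, *KAT2B* and *KAT6A* had no H4K16ac island within 2 kb of the start in any of the 3 lists. *KAT7* had one without doxycycline and at 2 days, and *KAT8* had one at 2 days and 7 days. In the short genes *KAT2A* and *KAT5* the marks overlapped at 2 days and without doxycycline: all 2.8 kb of H4K16ac in the *KAT2A* window lay under H3K27ac at 2 days, as did all 4.6 kb without doxycycline. In *KAT5* this held for all 1.6 kb at 2 days and all 5.8 kb without doxycycline. In *KAT8*, whose window is also short, it held for only 1.4 of 5.6 kb at 2 days and 3.8 of 11.6 kb without doxycycline. At 7 days the H4K16ac stretch under H3K27ac was 10 of 19.4 kb in *KAT2A*, 6.2 of 7.4 kb in *KAT5* and 3.4 of 12.8 kb in *KAT8*.

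In the 7 genes of at least 40 kb, a median of 77.7%, 82.2% and 71.7% of H3K27ac reads lay in the start-side part of the gene (up to its midpoint), and 7 of 7 genes were above 50% at each time. H4K16ac had the opposite placement, with medians of 22.7%, 27.4% and 30.6% and 0 of 7 genes above 50% at each time. H3K9ac lay between them, at 64.4%, 55.3% and 53.1%. *CREBBP* without doxycycline had 77.7% of its H3K27ac reads and 11.3% of its H4K16ac reads before the midpoint. In *EP300* the H4K16ac share was 22.7%, 36.8% and 42.3%, and in *KAT6A* it was 5.45%, 18.2% and 27.8%. In *KAT7* it was 43.1%, 27.4% and 30.6%. Whether other genes show the same placement was not tested.

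**Figure D3:**
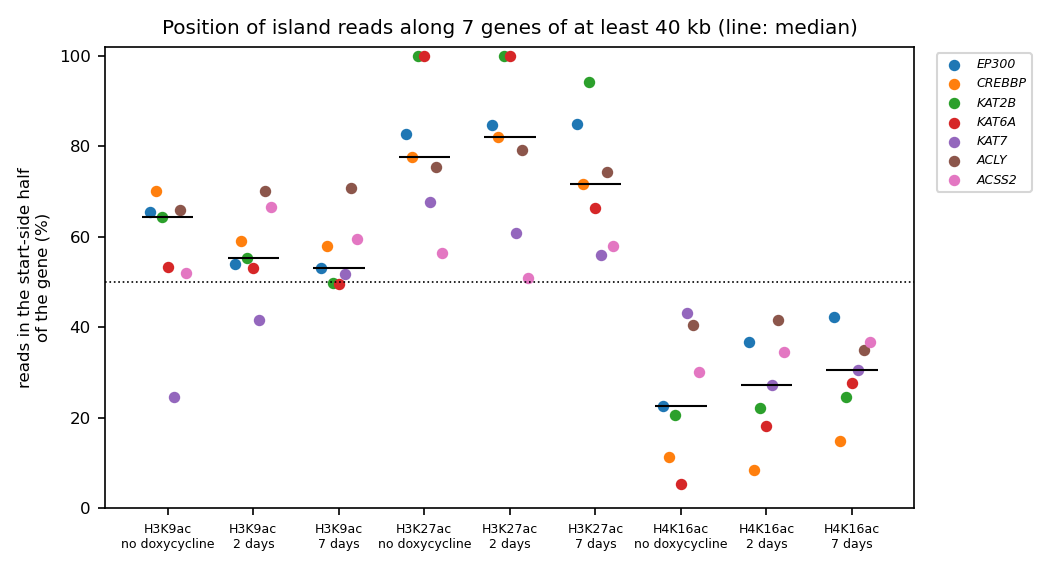
Percent of island reads of a gene that lie before its midpoint, for 7 genes of at least 40 kb (coloured points), 3 marks and 3 times, with the median as a line. H3K27ac points lie above 50% at every time and H4K16ac points below it.

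The share of H3K27ac bases in the windows that also lay under H4K16ac was 22.7%, 25.5% and 54.7%, against 29.2%, 32.4% and 50.4% over the genome. The stretch under all 3 marks was 45.8, 45.8 and 86.6 kb. Overlap thus was largest at 7 days in both the windows and the genome, when H4K16ac islands covered 586 Mb, against 276 Mb without doxycycline.

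*EP300* had its main H3K27ac island over the start, from -1.4 to 10.4 kb without doxycycline, with 698 reads. The island shortened to 7.0 kb with 490 reads at 2 days and to 5.4 kb with 204 reads at 7 days, while its reads per kb per unit were 14.9, 22.2 and 25.3. Over the whole window H3K27ac was 323, 296 and 278 reads per unit. H3K9ac was 262, 301 and 327 reads per unit, and H4K16ac was 193, 218 and 330. The log2 ratio at 7 days over no doxycycline was -0.21 (-0.38 to -0.05) for H3K27ac, 0.32 (0.20 to 0.45) for H3K9ac and 0.77 (0.63 to 0.92) for H4K16ac. None reached 2-fold, and per kb of island all 3 had the other sign, at 0.71, -0.28 and -0.48.

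Inside *EP300*, H4K16ac was gathered in the gene body. The region at 36.8 to 53.8 kb had 207 reads at 2 days, against 76 reads without doxycycline, a log2 ratio of 1.16 (0.77 to 1.56). It had 605 reads at 7 days, with a log2 ratio over no doxycycline of 1.36, and the region before it, at 20.8 to 36.0 kb, had a ratio of 1.07. An H3K27ac region from 45.4 to 54.8 kb overlapped only part of the H4K16ac region at 36.8 to 53.8 kb. It had 48 reads at 2 days, against 148 reads without doxycycline, a log2 ratio of -1.29 (-1.79 to -0.81). All 4 ratios change sign per kb of island, because the stretch called differed in length, 3.0 kb at 2 days against 9.4 kb without doxycycline for H3K27ac.

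*CREBBP*, the paralogue of *EP300*, carried a 25.8 kb H3K27ac island over its start, with 1011 reads without doxycycline and 766 reads over 25 kb at 2 days. At 7 days the same stretch was called as separate islands, and the one at the start had 70 reads over 2.2 kb. The window held 599, 536 and 558 H3K27ac reads per unit, with a log2 ratio of -0.16 (-0.25 to -0.07) at 2 days and -0.10 (-0.22 to 0.01) at 7 days over no doxycycline, and 0.18 and 0.75 per kb. H3K9ac was 250, 189 and 218 reads per unit, with a log2 ratio of -0.41 (-0.55 to -0.26) at 2 days, which was 0.071 per kb. An H3K9ac region at 57.8 to 60.8 kb was at least 2-fold lower at 2 days, at -1.28, and one at 52.6 to 56.0 kb was lower at 7 days, at -1.06, both over no doxycycline.

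H4K16ac in the *CREBBP* window was 96.7, 107 and 208 reads per unit, a log2 ratio of 1.10 (0.91 to 1.30) at 7 days over no doxycycline. It was 1 of 2 windows at least 2-fold higher in that comparison, against 29.2% of 100 kb tiles, and the other was the short *KAT2A* window, against 40.4% of 30 kb tiles. Relative to all H4K16ac island reads the ratio was 0.59, and per kb of island it was -0.71. The island with the most reads without doxycycline lay at 122.8 to 125.4 kb, near the end of the gene, and the region around it held 333 reads at 7 days, against 46 reads without doxycycline, a log2 ratio of 1.22 (0.77 to 1.70).

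**Figure D4:**
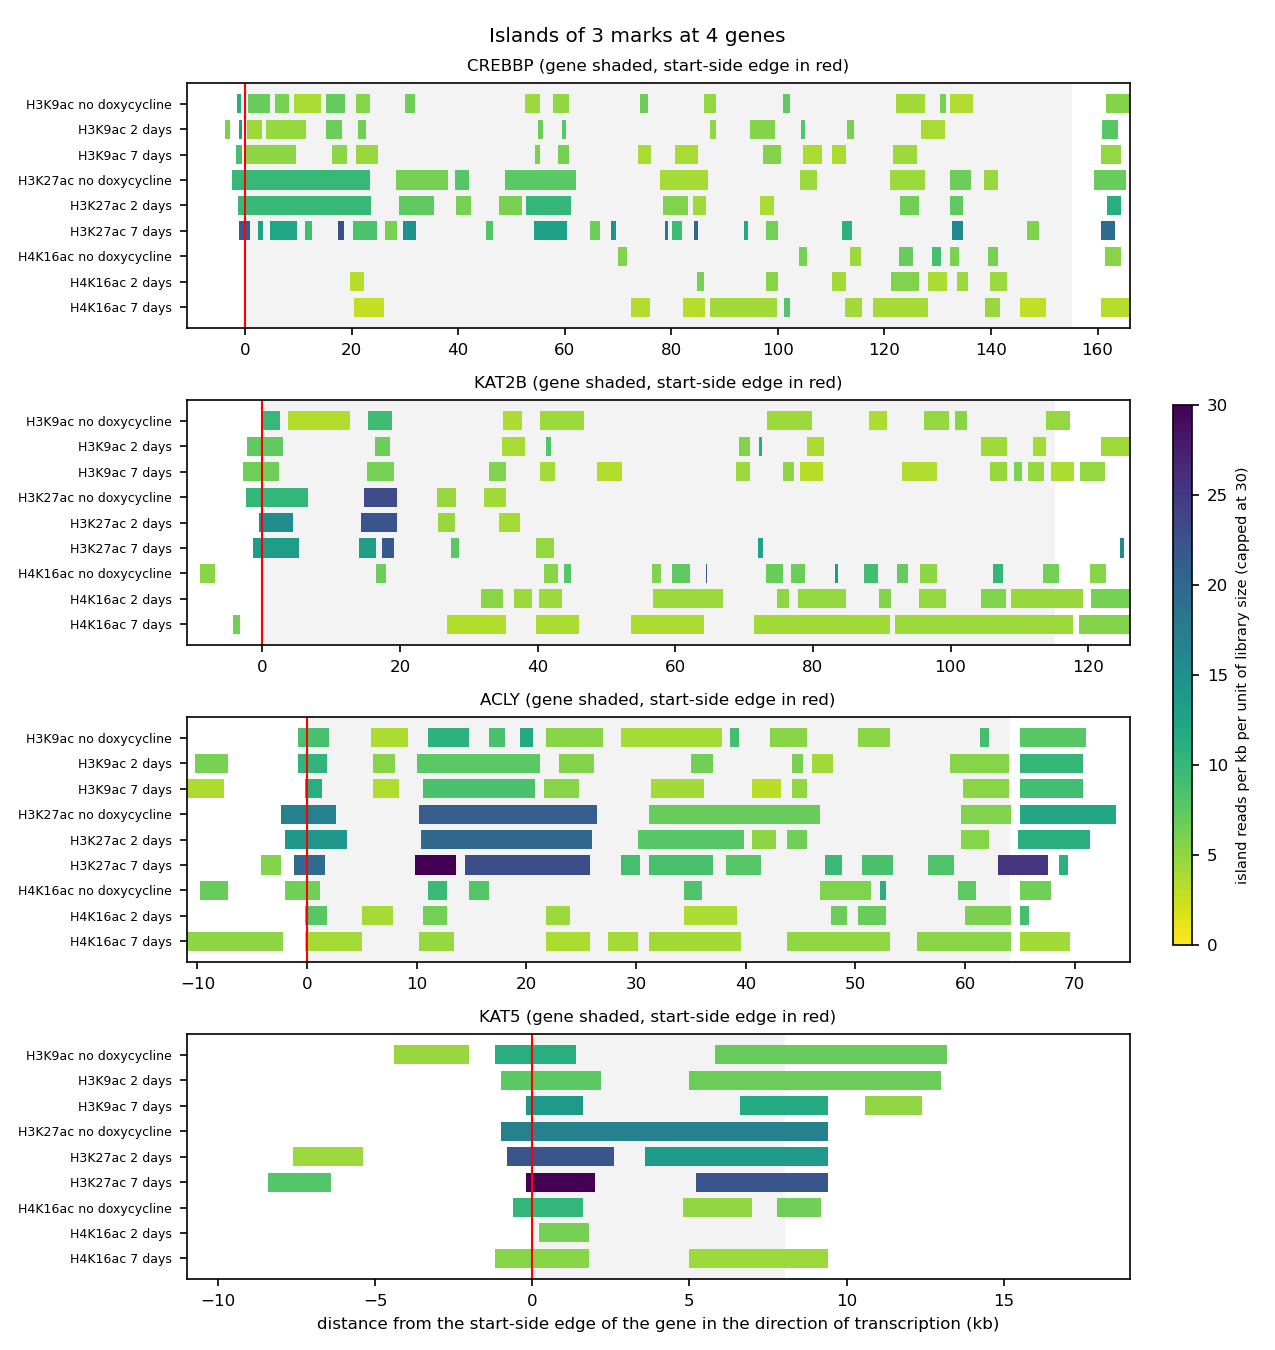
Islands of H3K9ac, H3K27ac and H4K16ac at *CREBBP*, *KAT2B*, *ACLY* and *KAT5* without doxycycline, at 2 days and at 7 days, as distance in kb from the start-side edge of the gene (red line, gene shaded); colour gives reads per kb per unit of library size. H3K27ac lies over the start-side edges and over an intragenic island of *KAT2B*, and H4K16ac lies mostly in the far parts of *CREBBP* and *KAT2B*.

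*KAT2A*, the catalytic subunit of SAGA-type coactivator complexes, has a short gene of 8 kb with *DHX58*, *HSPB9* and *RAB5C* within 10 kb, and its window values depended on islands that run into those neighbours. H3K9ac was 39.0, 92.03 and 64.7 reads per unit, a log2 ratio of 1.24 (0.94 to 1.55) at 2 days over no doxycycline. This was the only 1 of 10 windows at least 2-fold higher in H3K9ac at 2 days. Among 30 kb tiles, which match the short windows, 8.56% were, and among 100 kb tiles 5.49%. It rested on an island called at 2 days at -15.6 to -4.8 kb, upstream of the gene, with 254 reads. That stretch held 88 reads in islands without doxycycline, all past the edge of the window, and the region had a log2 ratio of 1.08 (0.72 to 1.44). Per kb of island the window ratio was -0.48, and counting only the part of each island inside the window it was 0.63. Without the 10 kb widening the log2 ratio was -0.33, from 130 reads at 2 days and 119 reads without doxycycline. The 130 reads lay in an island over the start, from -0.6 to 5.0 kb. Without doxycycline there were 70 reads at -0.8 to 2.4 kb and 49 reads at 3.6 to 5.4 kb. In the fixed stretch within 2 kb of the start the H3K9ac ratio was -0.47.

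H3K27ac in the *KAT2A* window was 273, 188 and 133 reads per unit. At 7 days over no doxycycline the log2 ratio was -1.03 (-1.26 to -0.82), the only 1 of 10 windows at least 2-fold lower, where 13.7% of 30 kb tiles and 6.25% of 100 kb tiles were. The same upstream stretch carried it: at 7 days an island of 81 reads covered -13.0 to -9.8 kb, against an island of 874 reads from -26.6 to -4.8 kb without doxycycline. Counting only the part of each island inside the window, the ratio was -0.36, and without widening it was 0.050. Without widening, *KAT2A* was called in neither H3K9ac nor H3K27ac.

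H4K16ac in the *KAT2A* window was 30.01, 12.3 and 103 reads per unit, the only mark and gene of the set called in opposite directions at the 2 times. The log2 ratio was -1.28 (-1.89 to -0.70) at 2 days and 1.78 (1.44 to 2.13) at 7 days over no doxycycline, from 38, 810 and 76 reads at 2 days, at 7 days and without doxycycline. At the start the island had 52, 38 and 242 reads over 3.0, 2.8 and 7.6 kb. Its reads per kb per unit were 6.84, 4.40 and 4.04, so its higher sum at 7 days was spread over a longer called stretch. The window sum at 7 days also held an island of 321 reads at 9.8 to 23.4 kb, past the end of the gene. That island was called at neither other time. Without widening, the reads counted were those of the start island. Per kb over the window the ratios were -0.57 and -0.84, and without widening the ratios of summed reads were -0.74 and 0.58, neither past 2-fold.

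*KAT2B*, the close relative of *KAT2A*, had the H3K27ac island with its most reads inside the gene. The island at chr3:20095801-20100600 (hg19), 14.8 to 19.6 kb past the start, had 443 reads without doxycycline and 3 HRP reads, against 367 reads in the island over the start. The authors' deposited fold over HRP for it was 37.1, higher than for 92.6% of islands in that list. The stretch held 361 reads in 1 island at 2 days, and 51 and 58 reads in 2 islands at 7 days. H3K9ac lay in the same place, where its region had 62 reads at 2 days, against 96 reads without doxycycline, a log2 ratio of -1.08 (-1.57 to -0.61).

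The *KAT2B* window held 212, 145 and 200 H3K9ac reads per unit, a log2 ratio of -0.55 (-0.71 to -0.39) at 2 days, the lowest of the 10 windows, and 0.068 per kb. Its regions at 40.4 to 46.8 kb and 73.4 to 81.6 kb were also at least 2-fold lower at 2 days, with log2 ratios of -2.16 and -1.61. The first was again lower at 7 days, at -1.68, and the second had 91 reads at 7 days, against 38 at 2 days, a log2 ratio of 1.03. H3K27ac was 230, 212 and 206 reads per unit. H4K16ac was 191, 269 and 376 reads per unit, and lay in the gene body, with a log2 ratio of 0.49 (0.33 to 0.66) at 2 days and 0.98 (0.84 to 1.12) at 7 days. Per kb these were -0.46 and -0.66. The 500 kb on each side of *KAT2B* had H4K16ac ratios of 0.85 and 0.90.

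*KAT5*, the catalytic subunit of the NuA4/TIP60 complex, which acetylates H4 and H2A, was covered from end to end by 1 H3K27ac island without doxycycline, from -1.0 to 9.4 kb with 702 reads. At 2 days and 7 days the island was split, and the part at the start had 237 reads over 3.4 kb and 155 reads over 2.2 kb. In the fixed stretch within 2 kb of the start, with island reads assigned in proportion to bases, H3K27ac was 50.9, 62.0 and 104 reads per unit. The log2 ratios there were 0.29 and 1.03 at 2 days and 7 days over no doxycycline. Without doxycycline the 702 reads were spread evenly over 10.4 kb, which put 203 in the stretch. At 7 days the whole island of 155 reads lay in it, so these ratios also depend on the length called. The window sum was 176, 165 and 213 reads per unit, with a log2 ratio of 0.27 (0.07 to 0.46) at 7 days over no doxycycline and 0.37 (0.16 to 0.57) over 2 days. H3K9ac was 91.8, 78.1 and 66.5 reads per unit, a log2 ratio of -0.46 (-0.70 to -0.23) at 7 days, the lowest of the set, and 0.49 per kb.

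H4K16ac in the *KAT5* window was 42.6, 10.0 and 35.9 reads per unit. The log2 ratio at 2 days was -2.09 (-2.71 to -1.50), the lowest of any window, mark and time here, from 31 reads at 2 days and 108 reads without doxycycline. At the start the island had 57, 31 and 126 reads, with no HRP reads without doxycycline or at 2 days. Islands at 4.8 to 7.0 kb and 7.8 to 9.2 kb, with 28 and 23 reads without doxycycline, were not called at 2 days, and at 7 days 1 island of 157 reads covered both. The region at the start alone had a log2 ratio of -1.16 (-1.84 to -0.51) at 2 days, and stayed lower per kb, at -0.70.

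*KAT8*, the H4K16 acetyltransferase of the MSL and NSL complexes, showed a lower H4K16ac sum at 2 days too. Its window had 67.5, 31.8 and 56.3 H4K16ac reads per unit, a log2 ratio of -1.09 (-1.46 to -0.72) at 2 days, which per kb was -0.037. The region at 7.2 to 19.6 kb had 68 reads at 2 days and 134 reads without doxycycline, and 370 reads at 7 days, when its log2 ratio over 2 days was 1.09. Islands at -10.0 to -7.4 kb, 15.4 to 16.4 kb and 17.2 to 19.6 kb, outside the gene, had 37, 23 and 34 reads without doxycycline and were not called at 2 days. Without widening, which drops these 3, the *KAT8* ratio was 0.063, from 98 reads at 2 days and 77 reads without doxycycline. *BCKDK*, *PRSS8* and *PRSS36* lie within 10 kb of it. H3K27ac was 169, 147 and 253 reads per unit, a log2 ratio of 0.58 (0.40 to 0.77) at 7 days. H3K9ac was 43.6, 36.4 and 49.95 reads per unit.

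The 3 windows at least 2-fold lower in H4K16ac at 2 days were the 3 short ones, *KAT2A*, *KAT5* and *KAT8*. Among 30 kb tiles 13.3% were at least 2-fold lower, and 0 of the 7 long windows were, against 12% of 100 kb tiles. The 500 kb on each side had H4K16ac log2 ratios of -0.42, -0.69 and -0.67 for these genes. Flanks were also low around *CREBBP* at -1.10, *ACLY* at -0.75 and *KAT7* at -0.56, whose windows stood at 0.14, -0.20 and 0.22 (-0.40, -0.36 and -0.14 per kb). *KAT2A* and *ACLY* are close neighbours, so their flanks overlap and each holds the window of the other. Flank reads were cut at the edges of the stretch, whereas window sums take whole islands. The fixed stretch within 2 kb of the start (for *ACLY* the outer edge, not a listed start) takes reads in proportion to bases. There H4K16ac was lower at 2 days in all 5 genes with an island in both libraries, *ACLY*, *ACSS2*, *KAT2A*, *KAT5* and *KAT7*. Their log2 ratios ran from -3.27 at *ACSS2* to -0.40 at *KAT2A*, with a median of -0.80. The *ACSS2* value rests on 3.29 reads assigned to the stretch from an island at -4.6 to -1.8 kb, which reaches 0.2 kb into it. Taken as whole islands, 3 of the 5 were lower, with a median of -0.43, and 2 were higher: *KAT7* at 1.05 (0.61 to 1.51), and *ACSS2* at 0.54 (-0.19 to 1.29), with 46 reads at 2 days and 26 reads without doxycycline. *KAT8* had a start island of 30 reads at 2 days and none without doxycycline. How often other gene starts were lower was not tested. At 7 days over no doxycycline H4K16ac in the fixed stretch ran from -1.22 to 0.41 in the 4 genes measured. Over all 10 genes the medians in that stretch at 2 days were -0.011 for H3K9ac and -0.088 for H3K27ac. At 7 days over no doxycycline they were 0.0095 and 0.26. At 7 days over 2 days 3 windows were at least 2-fold higher in H4K16ac, *KAT2A* at 3.06, *KAT5* at 1.84 and *ACLY* at 1.04, where 32.8% of 30 kb tiles and 23.2% of 100 kb tiles were. Per kb they were -0.27, -0.37 and -0.28, and the *ACLY* ratio was 0.60 relative to all H4K16ac island reads and 0.95 with islands cut at the window edge.

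**Figure D5:**
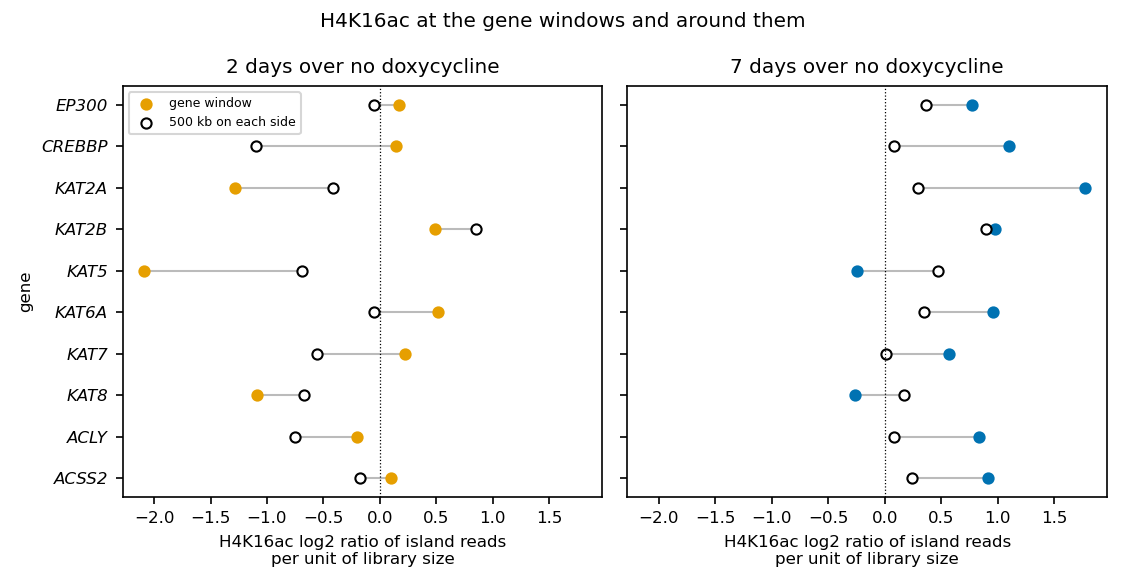
H4K16ac log2 ratios of island reads per unit of library size in each gene window (filled points) and in the 500 kb on each side of it (open points), at 2 days and at 7 days over no doxycycline. At 2 days *KAT5*, *KAT2A* and *KAT8* lie below their flanks, while *CREBBP*, *ACLY* and *KAT7* lie above theirs. Window reads are sums of whole islands and flank reads are cut at the edges, and the flanks of *KAT2A* and *ACLY* overlap.

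*KAT6A*, a MYST enzyme that acetylates H3, had its H3K27ac gathered at the start, in an island of 13.4 kb with 575 reads without doxycycline, 9.0 kb with 398 reads at 2 days and 3.8 kb with 122 reads at 7 days. The window held 235, 243 and 262 H3K27ac reads per unit. H3K9ac was 251, 313 and 320 reads per unit, with log2 ratios of 0.32 (0.19 to 0.45) at 2 days and 0.35 (0.23 to 0.48) at 7 days, or -0.17 and -0.14 per kb. Its region at 34.4 to 38.6 kb was at least 2-fold higher in H3K9ac at 2 days, with 89 reads against 26 reads without doxycycline. No H3K9ac island was called there at 7 days. At the start H3K9ac islands had 72, 216 and 228 reads, with log2 ratios of 1.13 and 0.98, or -0.74 and -0.43 per kb. In the fixed stretch within 2 kb of the start the H3K9ac ratios were 1.58 and 1.15. Without doxycycline the island of 72 reads lay at 1.2 to 3.6 kb, so only part of its reads was assigned to the stretch. The island ran from -2.8 to 6 kb at 2 days and from -0.4 to 6 kb at 7 days. These ratios thus also depend on where the islands were called. H4K16ac was 167, 238 and 324 reads per unit, and the region at 91.2 to 118.8 kb, toward the end of the gene, had 1087 reads at 7 days, against 173 reads without doxycycline, a log2 ratio of 1.01.

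*KAT7*, the MYST enzyme that acetylates H3K14 and H4, has *FAM117A* and *TAC4* within 10 kb. Its window had 286, 314 and 278 H3K27ac reads per unit. H3K9ac was 138, 164 and 181 reads per unit, with a log2 ratio of 0.38 (0.21 to 0.55) at 7 days over no doxycycline and -0.40 per kb. H4K16ac was 160, 187 and 237 reads per unit. The start carried H3K27ac islands of 396, 308 and 141 reads and H4K16ac islands of 59 and 149 reads without doxycycline and at 2 days. An H3K27ac region at -10.0 to -7.0 kb had 79 reads at 2 days, against 44 reads without doxycycline, a log2 ratio of 1.18 (0.63 to 1.75), the only H3K27ac region called higher. At 7 days the H4K16ac region from 43.6 to 62.6 kb, past the end of the gene, had a log2 ratio of 1.26 over no doxycycline, and an H3K9ac region at 2.2 to 6.2 kb had a log2 ratio of 1.09 over 2 days.

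*ACLY* had the most H3K27ac of the 10 windows, at 670, 576 and 735 reads per unit. The island with the most reads in the set lay 10.2 to 26.4 kb inside the outer edge of the gene (chr17:40060601-40076800, hg19), with 1371 reads without doxycycline and 979 at 2 days. At 7 days 2 islands of 194 and 391 reads covered it. A second H3K27ac island lay over the outer edge itself, near *ODAD4* and *KLHL11*, with 337, 247 and 82 reads and no HRP read. H3K9ac lay there as well, with 75, 113 and 87 reads and no HRP read.

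In sum over the *ACLY* window, H3K27ac had a log2 ratio of -0.22 (-0.30 to -0.13) at 2 days and 0.13 (0.03 to 0.24) at 7 days over no doxycycline. H3K9ac was 263, 276 and 260 reads per unit, and 3 of its regions were called at 2 days: 58.6 to 64.0 kb was higher, at 2.02, while 28.6 to 37.8 kb and 40.6 to 45.6 kb were lower, at -1.51 and -1.59. The first was higher at 7 days over no doxycycline as well, at 1.59, and the last was higher at 7 days over 2 days, at 1.32. H4K16ac was 148, 128 and 263 reads per unit, a log2 ratio of 0.83 (0.67 to 1.00) at 7 days over no doxycycline and -0.64 per kb. Its region at 55.6 to 64.2 kb had 76 reads at 2 days, 350 reads at 7 days and 30 reads without doxycycline, with log2 ratios of 1.06 and 1.91. Regions at 31.2 to 39.6 kb and at -13.4 to -2.2 kb were called higher at 7 days, at 1.39 and 1.61. The region at 65.0 to 69.6 kb was called lower at 2 days, at -1.35.

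*ACSS2* had 208, 177 and 209 H3K27ac reads per unit and 238, 222 and 229 H3K9ac reads per unit, and neither reached 2-fold at any time. The H3K27ac island at the start had 356, 211 and 49 reads over 7.4, 6.2 and 1.8 kb, shorter in the shallower libraries, while its reads per kb per unit were 12.1, 10.8 and 18.3. H4K16ac was 171, 183 and 322 reads per unit, a log2 ratio of 0.91 (0.76 to 1.06) at 7 days over no doxycycline and -0.42 per kb. The region at 17.6 to 25.8 kb was called higher at both times, with 105 reads at 2 days, 290 reads at 7 days and 25 reads without doxycycline, and log2 ratios of 1.79 and 1.90. H3K9ac overlapped it at 17.6 to 22 kb, with log2 ratios of 1.11 and 1.39. Other *ACSS2* regions called higher at 7 days were H4K16ac at 9.6 to 15.2 kb and 27.6 to 34.4 kb, at 1.33 and 1.10, and H3K9ac at 52.8 to 60.6 kb, at 1.27.

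Regions with an island in both libraries (islands of a mark's 3 lists merged where they overlap) were counted in the windows and over the genome. At 2 days over no doxycycline, 4 of 57 H3K9ac regions were at least 2-fold higher and 6 lower, against 4.64% and 9.51% of all regions. At 7 days the counts were 3 higher and 2 lower of 60, against 5.76% and 6.18%. H3K27ac had 1 higher and 1 lower of 43 at 2 days, against 0.472% and 3.41%, and 0 of 39 in each direction at 7 days, against 2.15% and 8.67%.

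For H4K16ac 3 of 37 were higher and 3 lower at 2 days, against 15.2% and 8.32% of all regions. At 7 days 11 of 40 were higher and 0 lower, against 22.9% and 2.35%. Those 11 lay in *ACLY* and *ACSS2* with 3 each, *EP300* with 2, and *CREBBP*, *KAT6A* and *KAT7* with 1 each. Between 7 days and 2 days, 6 of 66 H3K9ac regions were higher and 0 lower, against 8.27% and 4.04%, and 6 of 42 H4K16ac regions were higher and 0 lower, against 15.9% and 2.43%. H3K27ac had 0 of 40 in each direction, against 5.46% and 6.89%. Of the 7-day rises over 2 days not yet given, *CREBBP* had 3 in H3K9ac, at 1.45, 1.00 and 1.08, and 1 in H4K16ac, at 2.15. *ACLY* had 2 in H4K16ac, at 1.42 and 2.37, and *KAT2A* and *ACSS2* had 1 each, at 1.32 and 1.39.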

How the data were processed

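Island lists were used for 9 antibody libraries of CUT&RUN, whose control enters through the HRP counts in the lists. The genome build was hg19 and the aligner listed was Bowtie2 2.3.5.1, per the submitters' processing notes, which also name SICER, deepTools, Picard, FastQC and cutadapt. Parameters were not given in the sources used here. Per the file headers, the deposited lists give for each island the antibody and HRP read counts, a p-value, an FDR, a score and a log2 fold over HRP, with a largest deposited FDR of 0.0499. The authors' FDR and fold served to filter or rank islands within a list. The fold also entered relative library size, by which levels and ratios are scaled. The p-value and score were not used.

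Relative library size was recovered from the constant between the 2 counts and the deposited log2 fold, with 0 HRP reads entered as 0.25. The window value is the sum of antibody counts of all islands that overlap the window, divided by that size. Intervals are exact Clopper-Pearson, at 95%. PCR reads are not independent molecules, so intervals cover counting error only. Called means at least 2-fold. Tiles of 100 kb stand beside the 7 long windows and tiles of 30 kb beside the 3 short ones. The start is the outer edge of the gene on the side where transcription begins, which in *ACLY* is not a listed RefSeq start. An island outside the numbered chromosomes and X was left out. All 10 genes were named, with their start islands, their islands of most reads and every region at least 2-fold changed. The members and lists were chosen with earlier results of these data known. Other pathway genes and astrocyte markers were not analysed here. The ratio code was tested on simulated data. Python 3.11.15, pandas 2.3.3, numpy 2.4.6, scipy 1.17.1 and matplotlib 3.10.9 were used.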

Additional observations from a re-analysis of the deposited data

Results flagged for a closer look

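The *KAT2A* window moved in opposite directions in H4K16ac at the 2 times. Its log2 ratio of island reads per unit of library size was -1.28 at 2 days and 1.78 at 7 days, both over the same library without doxycycline, with 38, 810 and 76 reads at 2 days, at 7 days and without doxycycline. Each value comes from 1 library, and the difference was not tested. The relative library size was 3.08 at 2 days, 7.88 at 7 days and 2.53 without doxycycline, and its part in the result was not tested. Per kb of island both ratios were negative, at -0.57 and -0.84. Without the 10 kb widening the ratios of summed reads were -0.74 and 0.58, from 38, 242 and 52 reads in the same order. Of the window reads at 7 days, 321 lay in an island past the end of the gene.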

How the results depend on the processing

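No paired analysis was possible because each mark and time has 1 library and the labels carry no replicate numbers.

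Called length mattered most. Per kb of island, the median window log2 ratio was 0.17 and 0.36 for H3K27ac at 2 days and 7 days over no doxycycline. For H4K16ac it was -0.61 at 7 days over no doxycycline and -0.32 at 7 days over 2 days. Per kb, 7 of 39 H3K27ac regions were called higher at 7 days over no doxycycline, against 17.5% of all regions. Over 2 days 7 of 40 were, against 12.4%. At 2 days over no doxycycline 0 of 43 were called in either direction, against 2.84% higher and 0.470% lower. H3K9ac then had 1 higher and 0 lower of 57 at 2 days, against 0.863% and 1.15% of all regions. At 7 days over no doxycycline it had 0 higher and 1 lower of 60, against 0.302% and 2.01%. At 7 days over 2 days it had 0 higher and 1 lower of 66, against 0.322% and 1.69%. H4K16ac had 0 higher in each comparison, against 0.275% of all regions or less. At 2 days over no doxycycline 2 of 37 were lower, against 3.42% of all regions. At 7 days over no doxycycline 3 of 40 were lower, against 13.6%, and at 7 days over 2 days 2 of 42, against 3.84%.

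Per kb, 0 of the 10 called windows stayed past 2-fold, and 6 changed sign. In H3K9ac *KAT2A* was -0.48 at 2 days. In H4K16ac, at 7 days over no doxycycline, *CREBBP* was -0.71 and *KAT2A* -0.84, and at 7 days over 2 days *ACLY* was -0.28, *KAT2A* -0.27 and *KAT5* -0.37.

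Of the called regions 36 changed sign per kb, with these log2 ratios. H3K9ac at 2 days over no doxycycline: *ACLY* -0.74, 0.18 and 0.70, *CREBBP* 0.63, *KAT2A* -0.29 and *KAT2B* 0.84. H3K9ac at 7 days over no doxycycline: *ACLY* -0.80, *ACSS2* -0.26 and -0.020 and *CREBBP* 0.43. H3K9ac at 7 days over 2 days: *ACLY* -0.68, *CREBBP* -1.05, -0.32 and -0.51 and *KAT7* -0.066. H3K27ac at 2 days: *EP300* 0.36. H4K16ac at 2 days over no doxycycline: *ACLY* 0.46 and -0.34, *ACSS2* -0.54 and *EP300* -0.13. H4K16ac at 7 days over no doxycycline: *ACLY* -0.52, -0.999 and -0.47, *ACSS2* -0.021, -0.65 and -0.63, *CREBBP* -0.78, *EP300* -0.59 and -0.30, *KAT6A* -0.29 and *KAT7* -0.92. H4K16ac at 7 days over 2 days: *ACLY* -1.11, *ACSS2* -0.20, *CREBBP* -0.37, *KAT2A* -0.12 and *KAT8* -0.35.

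Without widening, *KAT2A* was -0.33 in H3K9ac at 2 days and 0.050 in H3K27ac at 7 days, and *KAT8* was 0.063 in H4K16ac at 2 days. With at least 50% of the island inside, *KAT2A* was -0.33 and 0.56. Of the 10 window calls, 4 were kept without widening, 5 with HRP reads subtracted, 7 with reads clipped to the window, and 8 each with at least 50% inside, with an FDR of 0.001 or less and scaled by all island reads. Clipping ended *KAT2A* in H3K9ac at 2 days, at 0.63, and in H3K27ac at 7 days, at -0.36, and *ACLY* in H4K16ac at 7 days over 2 days, at 0.95.

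Scaled by all island reads, the H4K16ac median at 7 days over 2 days was 0.38, with 2 of 42 regions higher, against 6.79% of all regions. At 7 days over no doxycycline 3 of 40 H4K16ac regions were higher and 1 lower, against 9.63% and 9.47%. In H3K27ac 1 of 40 regions was lower at 7 days over 2 days, against 8.23%. With an FDR of 0.001 or less, 0 of 39 H3K27ac regions were lower at 2 days, against 3.35% of all regions. With at least 50 reads in either library, 1 of 55 H3K9ac regions was lower at 7 days over no doxycycline, against 6.25%. With at least 200 reads, H3K9ac had 1 higher and 0 lower of 11 at 2 days, against 4.00% and 1.08%. At 7 days over no doxycycline it had 0 of 15 in each direction, against 6.31% and 0.548%. Over 2 days it had 0 of 17 higher, against 4.65%. H3K27ac had 0 of 21 in each direction at 2 days, against 0.0056% and 0.698%. H4K16ac had 1 higher and 0 lower of 5 at 2 days, against 16.7% and 3.63%.

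The median start-side shares kept their side of 50% under the 3 alternatives chosen after seeing the data (an FDR of 0.001 or less, 52044 islands per list, and no first 5 kb), except H3K9ac without the first 5 kb, at 49.9% at 2 days and 48.5% at 7 days. Without the first 5 kb, 5 of 7 genes were above 50% in H3K27ac at each time, and with 52044 islands per list 1 of 7 was in H4K16ac at 2 days. Neither clipping nor subtracting HRP reads turned the sign of a called window. The cause of these shifts was not tested beyond length.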
